A study of Homo sapiens with 2 samples.

Results

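The 3p arms of the catalogue block miR-6726 to miR-6895 were described in 22Rv1, a human line of prostate cancer cells in which the androgen receptor is expressed. A probe was a member if it was named hsa-miR-N-3p with a whole number N between those of miR-6726 and miR-6895, a rule that uses no measured value. It gave 164 of the 2565 miRNA probes of a Toray 3D-Gene array. The 4 probes of that number range with a letter in the name (miR-6769a-3p, miR-6769b-3p, miR-6780a-3p and miR-6780b-3p) fall outside the rule, and of these miR-6769a-3p alone was detected, on both arrays. One culture received 25 µM luteolin, a plant flavone, for 48 h, and the other was left untreated and taken at 48 h. Each was measured on 1 array in 1 colour, with 1 spot per miRNA. Since each condition has 1 array, luteolin and control could not be compared by a test. Errors written as ± are standard errors made from the spread between repeated control spots within an array, and they cover neither culture nor array variation.

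Mirtrons are short introns that fold into a hairpin once the spliceosome has cut them out and the lariat has been opened. They reach Dicer without the cut by Drosha that other miRNA precursors need. In a mirtron whose hairpin reaches the end of the intron, the 3p arm holds the pyrimidine-rich stretch before the splice acceptor and ends with the acceptor's AG, while the 5p arm, which pairs with it, is rich in purines. Most mammalian mirtrons are known as low-level miRNAs.

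The label was checked against RefSeq's miRNA sequences (GRCh38.p14), which matched 145 of the 164 members by name, 134 of them with their hairpin. The hairpin ended in AG for 129 of these 134 members (96.3%), against 73 of 573 other 3p arms (12.7%). The mature 3p arm itself ended in AG in 112 of 145 members (77.2%), against 71 of 641 other 3p arms (11.1%) and 9 of 139 5p arms of the block (6.47%). For 26 members the hairpin ended in AG but the listed mature arm stopped a few bases short of it. The exceptions, whose hairpin did not end in AG, were miR-6790-3p, miR-6792-3p, miR-6840-3p, miR-6852-3p and miR-6869-3p. Of the 134 hairpins, 131 lay within the span of a protein-coding gene. It ran on the hairpin's own strand for 115, and for the other 16 the gene's strand was not looked up. Exons and introns were not annotated here, so the place of a hairpin within its gene is not given. The median base composition of the members was 45.5% cytosine and 28.6% uracil, or 72.7% pyrimidine, against 54.5% pyrimidine for other 3p arms and 31.8% for the 5p arms of the block. By the AG end of the hairpin, nearly all members with a known hairpin match the label of 3p arms at a splice acceptor. MiR-6840-3p was the brightest of the exceptions. No splice site was looked up, and at the other end 17 of the 134 hairpins began with GU, as given below.

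Shown first are the 9 members that were brighter than every Negative Control spot on each array, since their ratios rest on signal above that background. Sequences run 5′ to 3′, and capitals mark the seed, bases 2 to 8, which leads the pairing of a miRNA with its targets.
hsa-miR-6765-3p: uCACCUGGcuggcccgcccag
hsa-miR-6872-3p: cCCAUGCCuccugccgcgguc
hsa-miR-6840-3p: gCCCAGGAcuuugugcggggug
hsa-miR-6801-3p: aCCCCUGCcacucacuggcc
hsa-miR-6766-3p: uGAUUGUCuucccccacccuca
hsa-miR-6763-3p: cUCCCCGGccucugcccccag
hsa-miR-6836-3p: aUGCCUCCcccggccccgcag
hsa-miR-6805-3p: uUGCUCUGcucccccgcccccag
hsa-miR-6816-3p: gAAGGACCugcaccuucg
No seed was shared among these 9. The seed of miR-6766-3p is also that of miR-219a-5p and miR-4782-3p on the array, and that of miR-6805-3p is shared with miR-5691. The other 7 had no seed relative outside the block among the probes with a sequence. Of the 9, 4 ended in AG (miR-6765-3p, miR-6763-3p, miR-6836-3p and miR-6805-3p) and 5 did not, against 33 of all 145 members that did not. For miR-6872-3p, miR-6801-3p, miR-6766-3p and miR-6816-3p the hairpin did reach AG, between 2 and 7 bases after the mature arm.

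By position on GRCh38.p14, miR-6765-3p (chr14:105150778-105150798, minus strand) lay in JAG2, which encodes a Notch ligand. MiR-6872-3p (chr3:50273275-50273295, plus strand) lay in SEMA3B, a secreted semaphorin, and miR-6801-3p (chr19:52222074-52222093, plus strand) in PPP2R1A, the scaffold subunit of protein phosphatase PP2A. MiR-6766-3p (chr15:89326742-89326763, minus strand) lay in POLG, the mitochondrial DNA polymerase, and miR-6805-3p (chr19:55388220-55388242, plus strand) in RPL28, a ribosomal protein gene. MiR-6763-3p (chr12:132582041-132582061, plus strand) lay in FBRSL1 and miR-6836-3p (chr7:2257515-2257535, minus strand) in SNX8, a sorting nexin, all on the strand of the gene. MiR-6816-3p (chr22:20114693-20114710, minus strand) lay in the span of TRMT2A, a tRNA methyltransferase gene whose strand was not looked up. MiR-6840-3p (chr7:100356696-100356717, plus strand) lay within no protein-coding gene of the table.

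The hairpins of 3 of them show the range of forms, with the 3p arm in capitals.
MIR6765: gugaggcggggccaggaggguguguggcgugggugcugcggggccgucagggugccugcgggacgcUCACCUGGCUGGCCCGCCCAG
MIR6872: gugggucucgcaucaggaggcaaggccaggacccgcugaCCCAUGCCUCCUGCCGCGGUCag
MIR6840: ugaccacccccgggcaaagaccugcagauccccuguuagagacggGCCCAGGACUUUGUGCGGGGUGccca
MIR6765 (87 bases) and MIR6872 (62 bases) begin with GU and end with AG, the letters of a splice donor and an acceptor. Whether these ends are splice sites was not looked up. They are not typical at the first end, since 17 of the 134 member hairpins began with GU, against 50 of 573 hairpins of other 3p arms and 12 of 12 of the earlier described mirtrons, miR-877 and those between miR-1224 and miR-1238. In MIR6765 the 3p arm ends with the hairpin, in MIR6872 it stops 2 bases before it, and MIR6840 (71 bases) has neither end.

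Across all 145 members with a sequence there were 140 different seeds, and 5 seeds were each shared by a pair. The pairs are shown because they are the members that could share targets through the seed.
hsa-miR-6819-3p: aAGCCUCUguccccaccccag
hsa-miR-6877-3p: cAGCCUCUgcccuuggccucc
hsa-miR-6784-3p: uCUCACCCcaacucugccccag
hsa-miR-6862-3p: cCUCACCCagcucucuggcccucu
hsa-miR-6764-3p: uCUCUGGUcuuuccuugacag
hsa-miR-6824-3p: uCUCUGGUcuugccaccccag
hsa-miR-6791-3p: uGCCUCCUuggucuccggcag
hsa-miR-6829-3p: uGCCUCCUccguggccucag
hsa-miR-6810-3p: uCCCCUGCucccuuguuccccag
The partner of miR-6810-3p is miR-6801-3p, printed above. Of these 10 members, miR-6801-3p alone stood above the Negative Controls on both arrays. MiR-6764-3p and miR-6824-3p were detected on neither array.

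Most members gave signals at or near the blank spots, which carry no probe sequence. A miRNA counted as detected where its raw signal exceeded the mean of the blank spots by more than 2 SD, after trimming 5% of the blanks at each end. This limit was 67.3 units on the luteolin array and 84.0 units on the control array. The median raw signal of the 164 members was 67.3 units on the luteolin array, where the blanks averaged 66.2 with an SD of 0.591, and 82.0 units on the control array, where they averaged 81.0 with an SD of 1.48. The member at the middle of the list thus stood 1.87 blank SDs above the blanks on the luteolin array and 0.688 on the control array. Members ranged between 64.7 and 1193 units on the luteolin array and between 76.8 and 792 units on the control array. One member, miR-6765-3p, stood far from the rest, since the next highest had 106 units on the luteolin array and 119 on the control array.

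Of the 164 members, 77 (47.0%) were detected on the luteolin array and 39 (23.8%) on the control array. Over all miRNA probes the shares were 38.4% and 31.6%. Both arrays detected 32 members (19.5%), against 27.3% of all probes, and neither detected 80 (48.8%), against 57.3%. The luteolin array alone detected 45 members (27.4%), against 11% of all probes, and the control array alone 7 (4.27%), against 4.29%. At this limit the members were thus above the share of all probes on the luteolin array and below it on the control array. The excess on the luteolin array did not hold at the other limits based on blanks. A limit of 3 SD was passed there by 51 members and 829 of the 2565 probes. With untrimmed blanks 53 members and 858 probes passed, so the members' share was slightly below that of all probes in both cases. No test of members against all probes was possible, and the arrays' limits were not equal. On the authors' normalized scale, described below, the limit stood at 5.47 on the luteolin array and at 9.0 on the control array. With the higher of these limits applied to both arrays, a step chosen after the data were seen, 46 members (28%) on the luteolin array and 39 (23.8%) on the control array passed. All probes then gave 30.8% and 31.6%. Most of the gap between the arrays in the number of members detected thus went with the limit.

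The blank spots were a lenient standard. The limit was itself passed by 22 of 320 blank spots (6.88%) on either array. It was also passed by 17 of the 32 Negative Control spots on either array. Of Negative Control 1, 12 of 16 spots passed it on the luteolin array and 15 of 16 on the control array. Of Negative Control 3, 5 of 8 and 2 of 8 passed, and of Negative Control 2 0 of 8 on either array.

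The highest Negative Control spot was 69.4 units on the luteolin array and 93.7 units on the control array. Above it lay 24 members (14.6%) on the luteolin array and 9 (5.49%) on the control array, against 23.1% and 12.1% of all probes. So 53 of the 77 members detected on the luteolin array, and 30 of the 39 detected on the control array, lay inside the range of the Negative Control spots. All 9 members above it on the control array were also above it on the luteolin array, where 15 more were. The 9 make 5.49% of the members, beside 12.1% of all probes above it on both arrays. The plot of member signals beside the control spots shows this overlap.

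**Figure D1:**
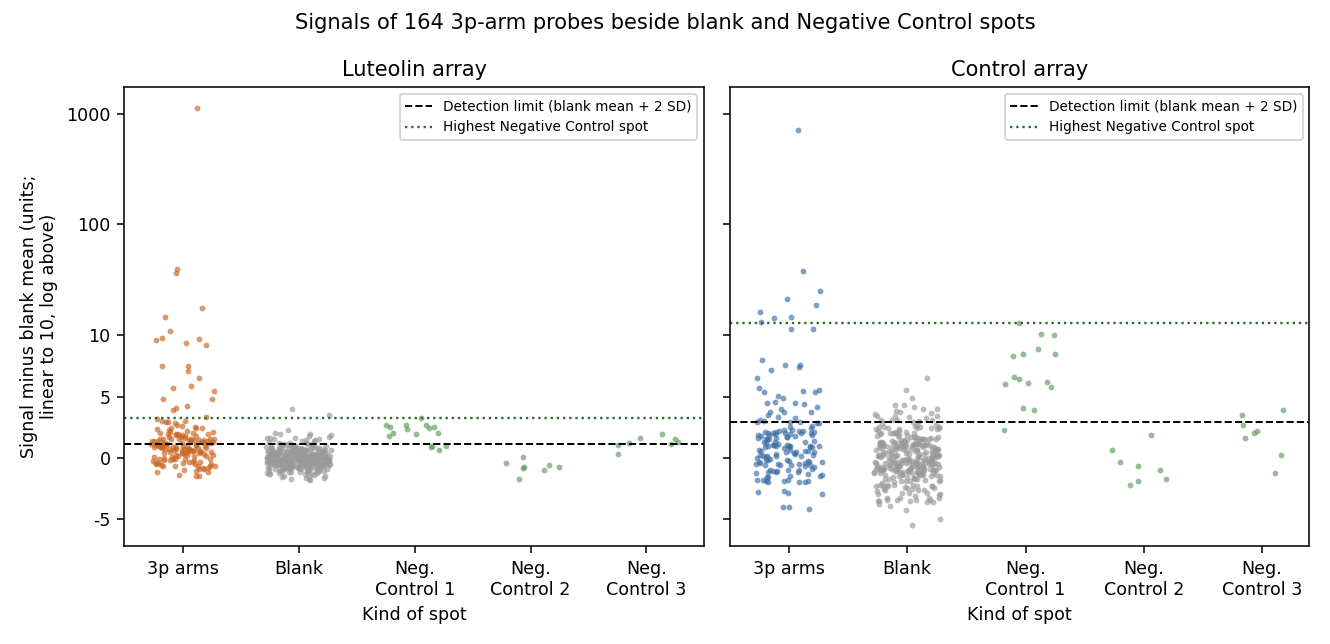
Raw signal minus the blank mean of the array (units, vertical axis) for the 164 3p-arm probes, the blank spots and the 3 Negative Control probes, luteolin array on the left and control array on the right. Points are single spots, the dashed line is the detection limit and the dotted line the highest Negative Control spot; most 3p arms overlap the blanks and Negative Control 1, and 24 on the luteolin array and 9 on the control array lie above the dotted line.

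The members held little of the arrays' signal. Detected members made 7.83% of the detected miRNAs on the luteolin array and 4.81% on the control array, but 0.847% and 0.751% of the signal that detected miRNAs gave over the blanks. Of the members' own signal, miR-6765-3p took 76.9% on the luteolin array and 68.9% on the control array. Probes bind with different strength, so a bright spot does not by itself mean a more abundant miRNA.

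The comparison between the arrays asks which members differ in level after luteolin. Levels are given on the authors' scale, in which each array's blank mean is subtracted, each array is multiplied by 1 factor that puts its median listed miRNA at 25, and the luteolin array is multiplied by a further 0.803. That last factor moved the median log2 ratio of all 701 miRNAs detected on both arrays from 0.32 to 0.00. The value of 0.00 is thus set by the scaling. A member counted as called when its level differed at least 2-fold, a log2 ratio of 1 in either direction.

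The largest ratio among the 9 bright members was that of miR-6872-3p, the arm from SEMA3B. Its raw signal was 106 units on the luteolin array and 99.7 units on the control array, although the blanks stood lower on the luteolin array. Its level was 183 ± 12 on the luteolin array and 56.9 ± 6.1 on the control array, which is 3.21-fold higher (log2 ratio 1.68 ± 0.18). With the wider spread of Negative Control 1 in place of the blanks the error became 0.25. The difference thus exceeded both spot errors, and its sign was positive under all 5 scalings tried, between 0.45 and 2.49.

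MiR-6765-3p, the arm from JAG2, was the brightest member and held place 9 of the 2565 probes by raw signal on the luteolin array and place 10 on the control array. Its raw signal was 1193 units on the luteolin array and 792 units on the control array. Its level was 5217 ± 325 on the luteolin array and 2159 ± 158 on the control array, which is 2.42-fold higher (log2 ratio 1.27 ± 0.14). Background has little weight at this signal, so the ratio rests on the scaling between the arrays. The log2 ratio was positive under all 5 scalings, between 0.21 with quantile normalization, which acts on ranks, and 2.09 with spike-in scaling. Together with miR-6872-3p, it was 1 of 2 among the 9 with the higher raw signal on the luteolin array.

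MiR-6801-3p, the arm from PPP2R1A, had a level of 80.8 ± 5.7 on the luteolin array and 43.2 ± 5.5 on the control array, with a log2 ratio of 0.90 ± 0.21. It was not called at 2-fold, and it was positive under all 5 scalings. MiR-6840-3p, the member outside any protein-coding gene, had 170 ± 11 and 116 ± 10, a log2 ratio of 0.56 ± 0.15 that turned to -0.05 without scaling between the arrays. Both members stood above their spot error on the authors' scale.

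MiR-6816-3p, which lies in the span of TRMT2A, stood on the other side, at 43.5 ± 3.9 on the luteolin array and 64.0 ± 6.5 on the control array. Its log2 ratio was -0.56 ± 0.19, and under spike-in scaling it turned to 0.25. The remaining 4 did not differ beyond their spot errors. MiR-6763-3p had 50.2 ± 4.2 on the luteolin array and 44.3 ± 5.6 on the control array, with a log2 ratio of 0.18 ± 0.22. MiR-6836-3p had 44.8 ± 3.9 and 39.5 ± 5.4, also 0.18, with an error of 0.23. MiR-6805-3p had 44.6 ± 3.9 and 49.1 ± 5.8, a log2 ratio of -0.14 ± 0.21. MiR-6766-3p had 67.2 ± 5.0 and 75.3 ± 7.1, a log2 ratio of -0.16 ± 0.17. These 4 ratios took both signs across the scalings. Of the 9, 2 were called higher (background 18.4% of 310 probes above the Negative Controls on both arrays) and 0 were called lower (0.645%). The ratio was above 0 for 6 of the 9 (background 52.3%).

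**Figure D2:**
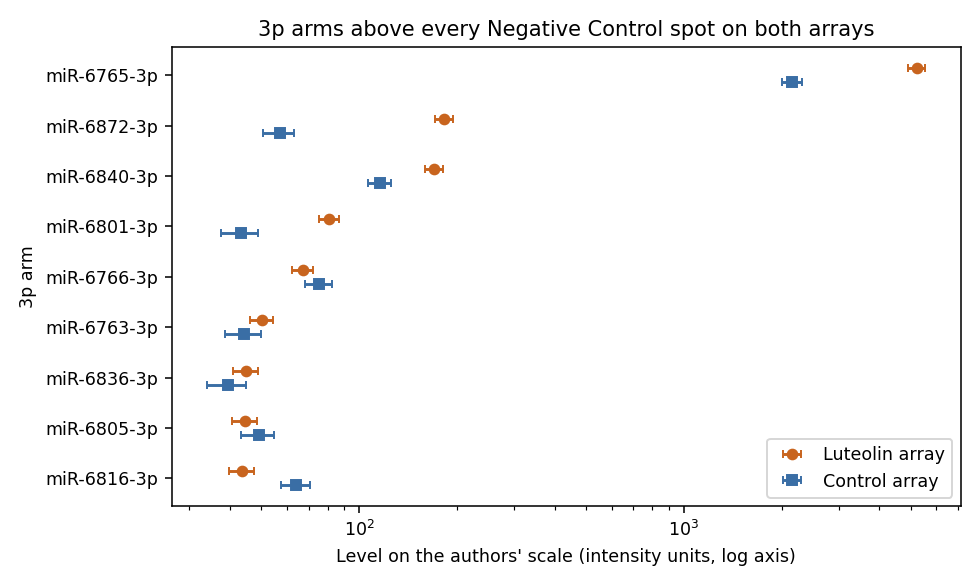
Level on the authors' scale (intensity units, log axis) of the 9 3p arms above every Negative Control spot on both arrays, luteolin array as circles and control array as squares, with bars of 1 standard error from the spread between repeated control spots. MiR-6765-3p stands apart at 5217 on the luteolin array and 2159 on the control array, and miR-6872-3p shows the widest gap between the arrays, at 183 and 56.9.

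Among all 32 members detected on both arrays the median log2 ratio was 0.17, with 18 above and 14 below 0. Over the 701 probes the median was 0.00 and 49.9% lay above 0, but the authors' last factor sets both of these values. The members' interquartile range, between -0.19 and 0.57, holds 0. The median standard error of the 32 ratios was 0.38, larger than their median ratio. The members' share above 0 stood near that of all probes. The 74 5p arms of the block detected on both arrays had a median of -0.13.

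At 2-fold, 2 of the 32 were called higher (background 13.4%) and 3 lower (background 5.14%). The 2 were miR-6872-3p and miR-6765-3p. The 3 were miR-6754-3p at -1.48 ± 0.79, miR-6861-3p at -1.25 ± 0.69 and miR-6823-3p at -1.01 ± 0.76. All 3 lay inside the range of the Negative Control spots on both arrays, with raw signals of 67.4, 67.7 and 67.6 units on the luteolin array and 86.4, 86.5 and 85.5 units on the control array, so no size can be given to these differences. Their luteolin levels, 5.86, 7.07 and 6.80, lay below the control array's limit of 9.0 on this scale. A probe detected on both arrays at such a level has a ratio below 0 by construction, so their direction is no result. MiR-6787-3p, at 6.20 and not called, was of this kind too, and the background follows the same rule. The split of 2 higher and 3 lower depended on the scaling. It was 6 and 1 without the authors' last factor (background 20.5% and 2.71%), 14 and 0 with spike-in scaling (background 40.2% and 0%), 1 and 5 without scaling (background 3.14% and 23.5%), and 0 and 0 with an offset of 50 and quantile normalization (background 0.143% and 0%). Of the 9 bright members, 3 were called higher and 0 lower without the last factor (background 24.5% and 0.323%). With spike-in scaling these numbers were 4 and 0 (42.9% and 0%), and without scaling 1 and 1 (3.87% and 16.5%). The members' calls thus moved with those of all probes. Over all 701 probes these scalings moved the median log2 ratio to 0.32, 0.81, -0.61 and -0.02. Relative to that median the members stood at 0.17 under each scaling by a single factor, and at 0.02 on the offset scale.

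**Figure D3:**
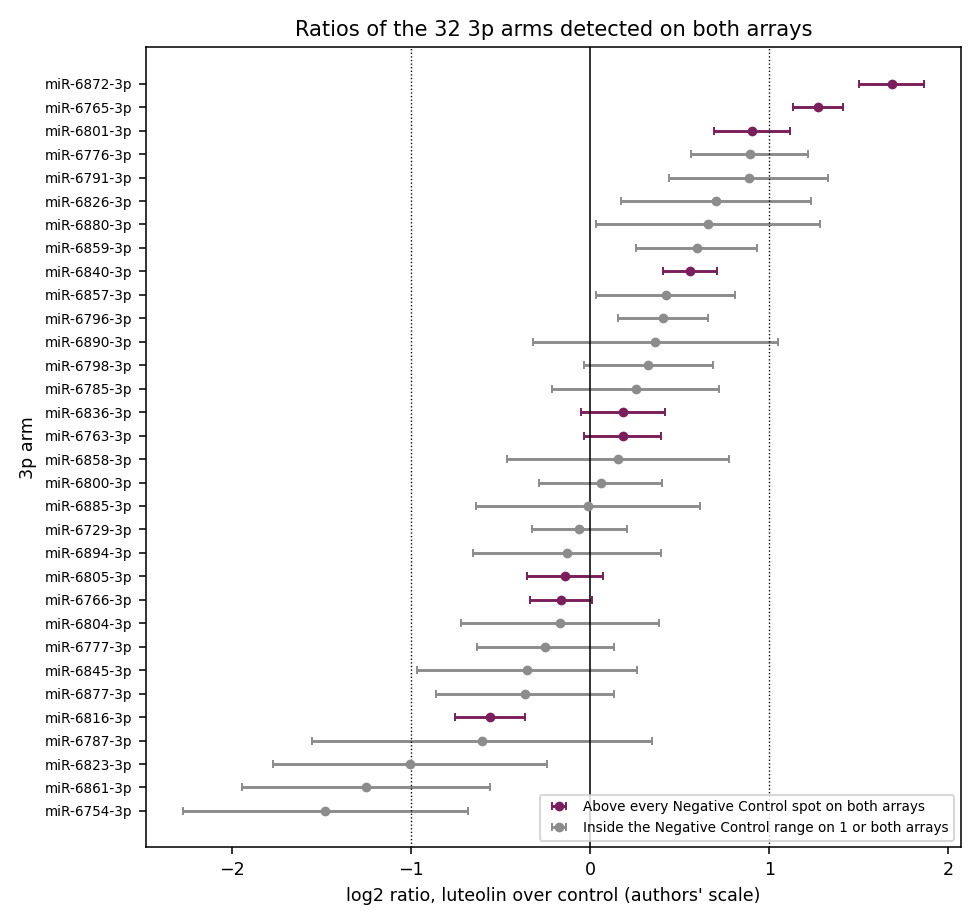
Log2 ratio of luteolin over control on the authors' scale (horizontal axis) for the 32 3p arms detected on both arrays, with bars of 1 standard error from the spread between repeated control spots. Purple points are the 9 arms above every Negative Control spot on both arrays and grey points the other 23, and dotted lines mark a 2-fold difference; 18 points lie above 0 and the widest bar is that of miR-6787-3p, a grey point.

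The 15 members above the Negative Controls on the luteolin array alone make 9.15% of the members, beside 11% of all probes. Their raw signals lay between 69.5 and 75.9 units on the luteolin array and between 82.3 and 92.3 on the control array, below the highest Negative Control spot there. Each luteolin level was divided by 38.7, the value on the authors' scale of the control array's brightest Negative Control spot, to give a bound. It exceeded 1 for 2 members. MiR-6796-3p, which lies in PLD3 (chr19:40369887-40369907, plus strand), had raw signals of 75.9 units on the luteolin array and 92.2 on the control array. Its bound was 1.17. On the control array its level was 34.1 ± 5.2, and its log2 ratio of 0.41 ± 0.25 turned to -0.20 without scaling. MiR-6776-3p, in CLUH, a gene for a factor that binds the mRNAs of mitochondrial proteins (chr17:2692861-2692883, minus strand), had 75.4 and 88.6. Its bound was 1.10. On the control array its level was 23.1 ± 4.8, and its log2 ratio was 0.89 ± 0.33, or 0.28 without scaling. Both control levels lay inside the Negative Control range, so neither bound is a measured minimum fold. Their luteolin levels were 45.2 ± 3.9 and 42.7 ± 3.8, so each stood above 38.7 by less than 2 standard errors, and the bounds assume the authors' scaling.
hsa-miR-6796-3p: gAAGCUCUccccuccccgcag
hsa-miR-6776-3p: cAACCACCacugucucuccccag
For the other 13 the bound was below 1. The next in the order of the bound were miR-6789-3p, miR-6859-3p, miR-6729-3p, miR-6791-3p, miR-6798-3p and miR-6857-3p. Of the 15, miR-6789-3p, miR-6795-3p and miR-6850-3p were not detected on the control array. By the same highest control-array spot on both arrays, 11 members (6.71%) passed on the luteolin array and 9 (5.49%) on the control array, against 13.5% and 12.1% of all probes.

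The 5p arm of the same hairpin was on the array for 163 of the 164 members (miR-6843-3p had none). Different probes read the arms, so their levels are not set against each other, only their detection and, where both are bright, their ratios between the arrays. On the luteolin array 54 hairpins had both arms detected, 22 the 3p arm alone, 49 the 5p arm alone and 38 neither. On the control array the numbers were 21, 18, 57 and 67. Above every Negative Control spot stood both arms of 13 hairpins, the 3p arm alone of 11 and the 5p arm alone of 54 on the luteolin array, and 3, 6 and 31 on the control array. The 5p arms were thus detected in more hairpins than the 3p arms on either array, 103 against 76 of 163 on the luteolin array and 78 against 39 on the control array. These 5p counts are 63.2% and 47.9%, beside 38.4% and 31.6% of all probes. Above the Negative Controls 5p arms made 41.1% and 20.9%, beside 23.1% and 12.1% of all probes. The 5p arms had a median of 50% guanine, against 14.3% for the members. The part of base composition in these counts was not tested.

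The 3p arm was detected in 52.4% of hairpins whose 5p arm was detected and in 36.7% of the rest on the luteolin array, and in 26.9% and 21.2% on the control array. With the limit at 3 SD these shares were 35.9% and 23.9% on the luteolin array and 23.2% and 11.7% on the control array. Above every Negative Control spot they were 19.4% and 11.5%, and 8.82% and 4.65%. The share was the higher one where the 5p arm was detected in each of these counts, with no test run. Of the 9 bright members, 5 had a 5p arm detected on both arrays, and for miR-6765, miR-6805 and miR-6816 that arm also exceeded the Negative Controls on both. Of all 163 5p arms of the block, 45.4% were detected on both arrays and 20.9% exceeded the Negative Controls on both. The 5p arm of miR-6765 had a log2 ratio of -0.14 ± 0.17, while its 3p arm stood at 1.27 ± 0.14. In miR-6805 and miR-6816 both arms lay below 0 on the authors' scale, the 5p arms at -0.16 ± 0.18 and -0.31 ± 0.24, and all 4 ratios lay above 0 with spike-in scaling. The 5p arms of miR-6763 and miR-6840 lay inside the Negative Control range on the control array, so no ratio is given for them. The 5p arms of miR-6872, miR-6801, miR-6766 and miR-6836 were detected on neither array.

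**Figure D4:**
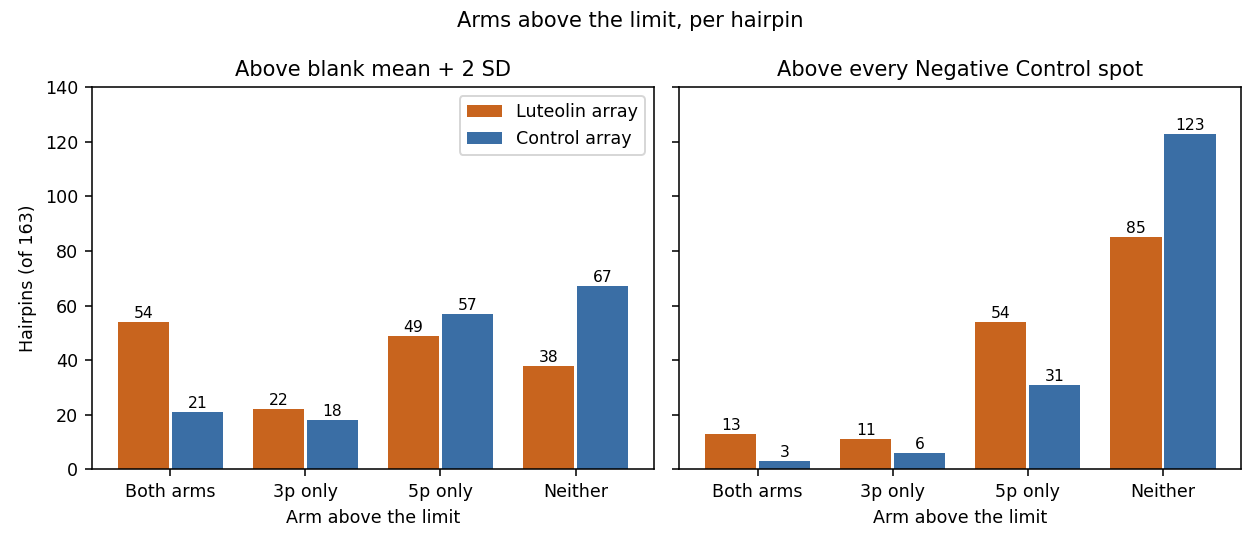
Number of hairpins (vertical axis, of 163 with both arms on the array) with both arms, the 3p arm alone, the 5p arm alone or neither above the limit, luteolin array left of control array in each pair of bars. The left panel uses the detection limit and the right panel the highest Negative Control spot, where 11 hairpins on the luteolin array and 6 on the control array had the 3p arm alone, against 54 and 31 with the 5p arm alone.

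Signals varied with the base composition of the member. In 3 ranges of cytosine share, set after the data were seen, the luteolin array detected 3 of 29 members at or under 35% cytosine (10.3%), 16 of 40 between 35% and 45% (40.0%) and 50 of 76 above 45% (65.8%). The control array detected 2 (6.90%), 5 (12.5%) and 26 (34.2%) of the same members. Probes outside the block were detected in 35.4%, 40.4% and 68.3% of cases on the luteolin array and in 30%, 37.6% and 55.8% on the control array. The share detected was thus highest in the most cytosine-rich range for members and for other probes, and no test was run.

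Across the 145 members, which share the array and its background, the Spearman correlation of cytosine share with raw signal was 0.511 on the luteolin array and 0.461 on the control array. That of uracil share was -0.443 on either array. The share of pyrimidines as a whole had correlations of 0.128 and 0.0622, and that of guanine and cytosine together 0.518 and 0.507. For guanine alone it was -0.05 on the luteolin array and near 0 on the control array. Over the 2108 other probes with a sequence the correlation with guanine and cytosine together was 0.503 on the luteolin array and 0.451 on the control array. There cytosine alone had 0.118 and 0.091, guanine alone 0.349 and 0.323, and uracil alone -0.365 and -0.349. The combined share thus had similar values in both sets, and uracil was negative in both. Cytosine alone and guanine alone differed between the sets. The part of base composition in the detection of members was not tested. Members detected on neither array had a median of 40.0% cytosine and 30.4% uracil, and the 9 bright members 52.4% and 16.7%. Within the 9, miR-6840-3p (22.7% cytosine, 45.5% guanine) and miR-6816-3p (33.3% cytosine, 27.8% guanine) were exceptions, with less cytosine than that 40.0%.

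**Figure D5:**
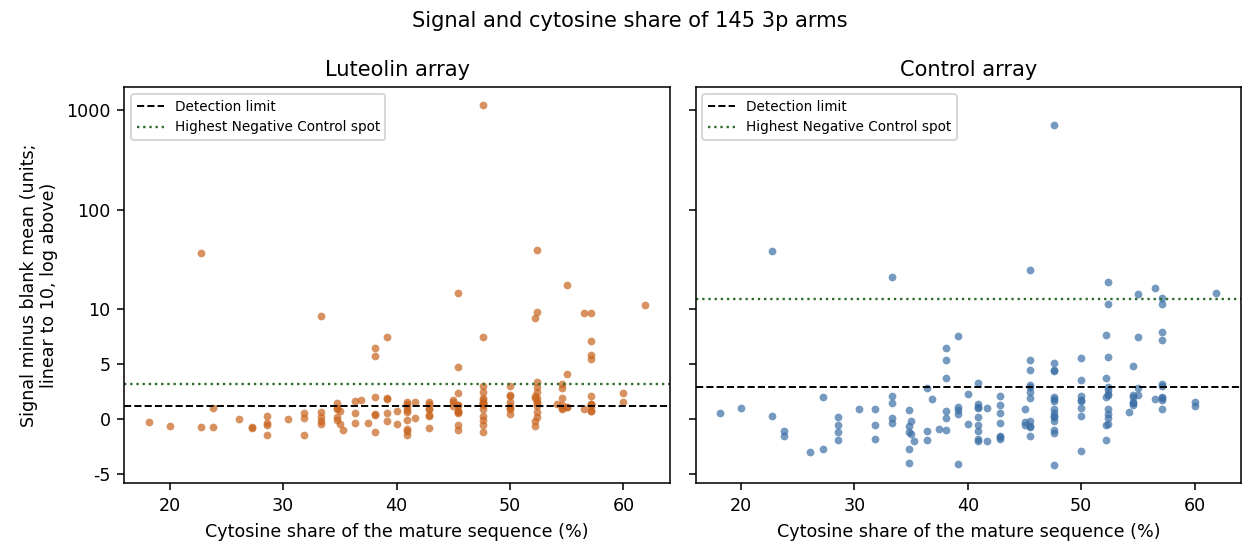
Raw signal minus the blank mean (units, vertical axis) against the cytosine share of the mature sequence (percent, horizontal axis) for the 145 3p arms with a RefSeq sequence, luteolin array on the left and control array on the right. Dashed lines mark the detection limit and dotted lines the highest Negative Control spot; of the 29 arms at or under 35% cytosine, 3 pass the dashed line on the luteolin array and 2 on the control array.

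For comparison, the same earlier described mirtrons gave 9 of 13 arms detected on the luteolin array and 8 of 13 on the control array, with 4 and 1 above the Negative Controls. All were named as 3p arms except miR-1231, whose name gives no arm and which was detected on neither array. Among the 12 with a hairpin, the largest distance between mature end and hairpin end was 68 bases, in hairpins of at most 102. The list thus does not hold 3p arms alone. MiR-1228-3p was above them on both, at 39.5 on the luteolin array and 42.3 on the control array, a log2 ratio of -0.10 ± 0.23. The other 6 arms detected on both arrays lay inside the Negative Control range on at least 1 array, so no size is given to their ratios.

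The cell type label was checked with markers. The epithelial miR-141-3p, miR-200b-3p, miR-200c-3p and miR-375 exceeded the Negative Controls on both arrays, while the basal marker miR-205-5p was detected on neither. Of 11 markers of blood, endothelial, stromal, muscle, liver and neural cells, 1 did so, the red-cell miR-451a, at 22.1 on the luteolin array and 39.8 on the control array.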

How the data were processed

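Per the labels, total RNA extracted with ISOGEN was labelled with Cy5 and hybridized to Toray 3D-Gene arrays, 1 for luteolin-treated and 1 for untreated cells, with 3200 spots each. Per the file headers, the authors deposited spot intensity (linear) as raw data, a background-subtracted value, a globally normalized value and, for the luteolin array, an adjusted value. The values show that the authors subtracted the trimmed blank mean and listed a value only above the limit. That rule gave the authors' listing for every miRNA. The deposited series table was not used for results. For scanner, software and the basis of the adjustment, details are not given in the sources used here. By the values, the adjustment brought the median log2 ratio of the miRNAs detected on both arrays to 0.00.

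Counts, levels and ratios were computed with pandas 2.3.3, numpy 2.4.6 and scipy 1.17.1 in Python 3.11.15, and drawn with matplotlib 3.10.9. The alternative offset scale used normexp with an offset of 50 and quantile normalization in limma 3.58.1 (R 4.3.3). It was not taken as the main scale because an offset pulls the ratios of dim miRNAs towards 0. Standard errors combine the blank SD with the pooled coefficient of variation of 5 bright control probes, 6.23% on the luteolin array and 7.34% on the control array. Precision is limited by there being 1 array per condition. The blank-based limit and the ratio calls were also run on simulated arrays with planted ratios. That simulation covered neither the Negative Control limit nor the alternative scalings. Members, lists and ranges were chosen with earlier results of these data known. Named members are those above every Negative Control spot on both arrays, the highest in signal, those with the largest ratios among them, the 8 with the highest bound among those above the Negative Controls on the luteolin array alone, the 5 brightest per array, and hairpins with both arms above the Negative Controls on both arrays. Seed pairs, arms called lower and members not detected on the control array were named after their values were seen. Host genes and sequences came from RefSeq tables on GRCh38.p14.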

Additional observations from a re-analysis of the deposited data

Results flagged for a closer look

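Spots named No Probe, which no comparison above uses, gave signal on both arrays. Of 85 such spots, 4 exceeded every Negative Control spot on the luteolin array and the same 4 did so on the control array. The highest read 179 units on the luteolin array and 175 units on the control array. Their median, 66.0 units on the luteolin array and 81.1 on the control array, lay at the blanks. The content of these spots was not analysed here.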

How the results depend on the processing

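Each array stands for a single culture and a single spot per miRNA, so the values above describe this pair of arrays, and signal close to the blanks limits all but the 9 bright members. No paired analysis was possible because each condition had 1 array.

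The number of detected members on the luteolin array (77) was 53 with untrimmed blanks, 51 with a limit of 3 SD, 24 above every Negative Control spot and 46 by the control array's limit. On the control array (39) it was 30, 27, 9 and 39. Of all 2565 probes the luteolin array (984) passed 858, 829, 592 and 790 by these limits. The control array (811) passed 702, 646, 310 and 811. Members above the Negative Controls (24 on the luteolin array, 9 on the control array) numbered 22 and 17 above the highest blank spot, and 11 and 9 by the control array's highest Negative Control spot. All probes numbered 520 and 481 above the highest blank spot, and 345 and 310 by the control array's highest Negative Control spot. Hairpins with both arms detected (54 and 21) numbered 33 and 16 at 3 SD, and 13 and 3 above the Negative Controls. Those with the 3p arm alone (22 and 18) numbered 17 and 11, then 11 and 6. Those with the 5p arm alone (49 and 57) numbered 59 and 53, then 54 and 31. Stricter limits pass fewer probes by construction.

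Members called higher and lower (2 and 3) numbered 6 and 1 with median scaling, 14 and 0 with spike-in scaling, 1 and 5 with no scaling, 0 and 0 on the offset scale and 2 and 0 above the Negative Controls. The median log2 ratio (0.17) became 0.98 with spike-in scaling and -0.44 with no scaling, and was 0.49, 0.00 and 0.18 in the other alternatives. A single factor between the arrays moves every ratio alike. Over the 5 scalings, 3 of the 9 bright members kept their sign. The limits common to both arrays were chosen after seeing the data, and the others were planned.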
